A study of Mus musculus with 6 samples.

Results

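The genes described here are the Wnt ligands, the Frizzled receptors and the Sfrp and Dkk antagonists of the mouse. They were chosen by name: protein-coding RefSeq genes on chromosomes 1 to 19 whose symbol is Wnt, Fzd, Sfrp or Dkk followed by a digit. The rule found 37 of 20665 protein-coding genes on these chromosomes, of which 19 encode Wnt ligands, 10 Frizzled receptors, 4 secreted Frizzled-related proteins and 4 Dickkopf proteins. The question was how many of them lay near DNA captured with LncMyoD, a long non-coding RNA encoded next to the muscle regulator gene Myod1.

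The DNA came from primary C57BL/6 myoblasts of skeletal muscle that had been held in DMEM with 2% horse serum for 2 days and were labelled as differentiated myotubes. ChIRP captures an RNA, and the chromatin it is attached to, with biotinylated DNA probes. Capture with odd-numbered probes, capture with even-numbered probes and input DNA gave 3 groups of 2 replicates, all without a further treatment or mutation. The authors deposited 1 peak list per replicate, of 157214 peaks in replicate 1 and 179630 in replicate 2, in mm10 coordinates. Each list carries the label common to all 3 samples of its replicate, so the probe pools could not be compared and no value here has an SD. Nothing says that the replicates were separate cultures, and differences between the lists may be technical. Sequencing depth is unknown. Cell identity could not be checked against marker genes, because the lists hold DNA peaks and no expression. Peaks of the 2 lists that overlapped by at least 1 bp were joined into 97493 shared regions, 91707 of them on chromosomes 1 to 19. A peak's fold is the authors' enrichment at its summit over the caller's background.

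Wnt proteins are secreted, lipid-modified ligands that bind Frizzled receptors at the cell surface. With the co-receptors Lrp5 and Lrp6 this stabilises beta-catenin, which then acts with TCF and LEF factors in the nucleus, while other Wnt signals run through Ror receptors and planar cell polarity proteins. Sfrp proteins bind Wnts outside the cell, and Dkk1 blocks Lrp5 and Lrp6. In the mouse embryo, Wnts from the neural tube and surface ectoderm help to start muscle formation in somites, and in adult mouse muscle Wnt7a acts through Fzd7 on satellite cells.

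Shared regions lay within 5 kb of 26 of the 37 genes (70.3%, 95% exact binomial interval 53.0 to 84.1%, which covers only the number of genes). The share among all protein-coding genes of chromosomes 1 to 19 was 72.2%. Longer genes have more room for a region, so each gene was also set beside other genes of its own length, in 10 classes of gene length. By these classes 26.5 of the 37 genes would have had a region, so the count of 26 was near the background. A peak of replicate 1 lay within 5 kb of 29 of the 37 genes, against 80.6% of all genes and 29.9 from gene length. A peak of replicate 2 lay within 5 kb of 31 of them, against 84.3% of all genes and 31.4 from gene length. No test was made on these counts, since the genes were chosen as a group and there is 1 peak list per replicate.

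The 4 families differed in length and in their counts. Of the 19 ligand genes, with a median length of 22906 bp, 15 had a shared region, against 14.7 from gene length. Of the 10 receptor genes, with a median length of 4594 bp, 6 had one, against 6.22. Among the antagonists, 2 of 4 Sfrp genes did, against 2.74, and 3 of 4 Dkk genes, against 2.88. Below 10 kb, 7 of 16 genes had a region (43.8%), against 51.7% of other genes of that length. From 10 kb upward, 19 of 21 did (90.5%), against 83.5%.

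**Figure D1:**
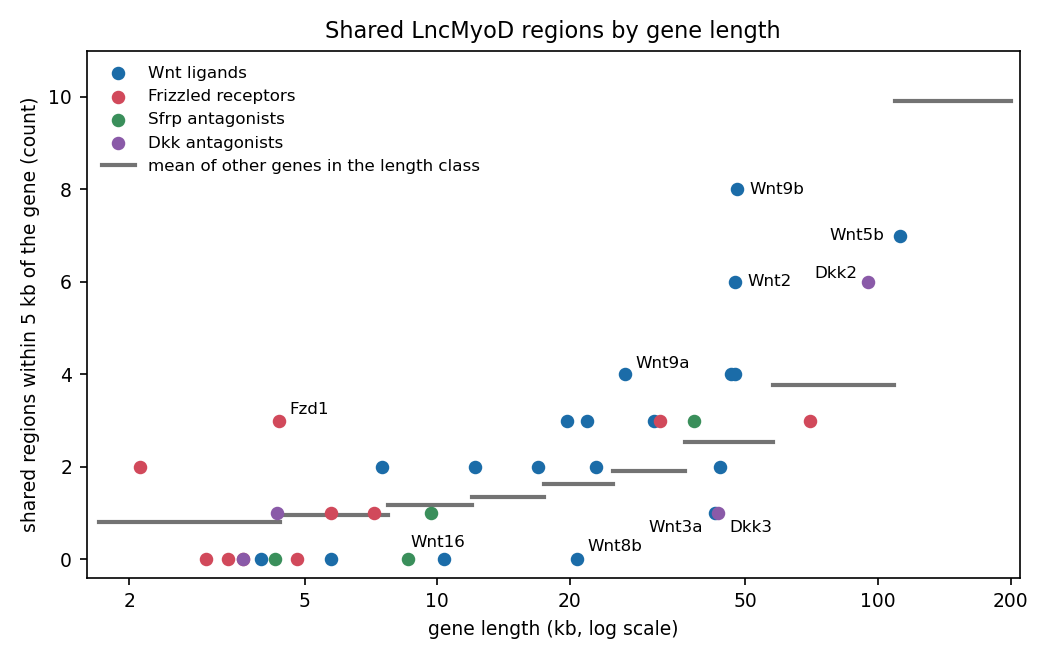
Number of shared regions within 5 kb of each of the 37 genes (vertical axis, count) against gene length (horizontal axis, kb, log scale, ending at 200 kb). Points are genes, coloured by family, and horizontal lines are the means of the other genes in each length class. Counts grow with length, from 0 to 3 below 10 kb to 7 at Wnt5b, and Wnt9b has 8.

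The regions themselves numbered 76, and 2 of them lay within reach of 2 of the genes, so that the genes held 78 in all. Gene length gave 68.4. The ligands held 53 of the 78, against 42.1 from gene length, and the receptors 13, against 12.7. The Sfrp genes held 4, against 5.70, and the Dkk genes 8, against 7.94. The median was 2 regions per gene, against 1 for all protein-coding genes, and the mean was 2.11, against 2.45. Single genes elsewhere held up to 72. In the longest length class, of 2067 genes from 109104 bp upward, the other genes had a mean of 9.92 and a median of 8. Of the genes described here, only Wnt5b belonged to that class. The cause of the lower mean was not tested. Most regions lay inside a gene or across its end (58 of 78), where gene length gave 50.1 of its 68.4. For 74 of the 78 the gene was also the nearest protein-coding gene, where gene length gave 60.1.

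In strength, the 76 regions ranged from 4.04-fold to 54.4-fold in replicate 1 and from 3.04-fold to 58.4-fold in replicate 2. Their median folds were 11.9 and 12.0, against 10.7 and 12.0 for the 45660 regions near any protein-coding gene of these chromosomes. Both folds were at least 20 in 14 of the 76 regions (18.4%), against 20.2% of the 45660. Each region was placed by its best peak in either list: the 2 percentiles of −log10 q were averaged. Of the 76, 5 (6.58%) belonged to the strongest 10% of regions on chromosomes 1 to 19, against 10.4% of those near any protein-coding gene. They lay at Wnt9a, Wnt5a, Wnt2 and Wnt7b, which had 2. The summits of the 2 lists were a median of 83.5 bp apart, against 81.0 bp for regions near any gene. Folds of the 2 lists had a Spearman correlation of 0.766 across the 76 regions and 0.751 across the 45660. Regions are not independent replicates, and their values come from the same 2 lists. Strong best regions were also found in other genes of the same length class. For Wnt9a, 4.99% of them had a best region at least as strong, and for Wnt5b 63.6%. The rest of the 10 genes with the strongest regions lay between these shares.

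**Figure D2:**
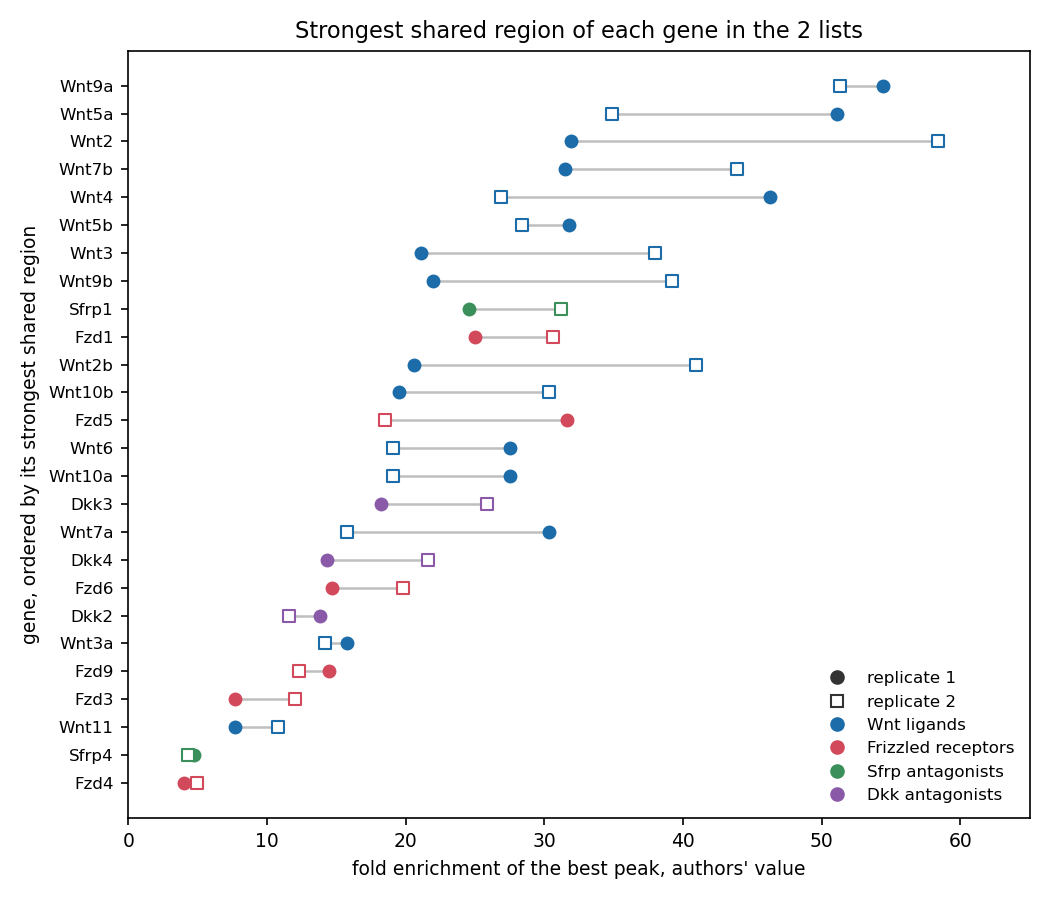
Fold enrichment of the strongest shared region of the 26 genes that have one (horizontal axis, authors' fold, starting at 0). Filled circles are replicate 1, open squares replicate 2, and colours are families. The first 8 genes are Wnt ligands, and Fzd4 and Sfrp4 lie below 5-fold in both lists.

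No shared region reached a listed promoter of these genes. RefSeq promoter windows, from 250 bases before to 50 after a start, were listed for 25 of the 37 genes. Of the 25, 0 had a shared region over one. That allows a share of up to about 12.0%, by the approximate rule of 3 divided by the number of genes. Among all listed genes the share was 11.1%, which gives 2.77 of 25 and lies within that limit, so a share below it was not detectable with this number of genes. Replicate 1 alone also gave 0, against 11.5% of all listed genes, and replicate 2 alone gave 1, at Fzd7, against 14.2%. The count leaves out genes without a listed start, some of which had a shared region at a gene end. Such regions lay across an end of Fzd3 and of Wnt7b, at the edge of Wnt5a and 53 bp from Dkk4. Whether those ends are starts was not examined. The base composition of these windows was high in G and C, with a median of 69.4% over the 250 bases before the start, against 56.0% for all windows. Windows in the same classes of GC content held a region in 13.4% of cases, against 10.2% for all windows. That share belongs to 28 windows, while the limit of about 12.0% is approximate and belongs to 25 genes. Over the 28 windows themselves, 0 had a shared region, against 3.74 by GC class and 2.85 from all windows. Windows of the same gene are not independent, so no limit was set for them. It cannot be said from the limit for genes whether the count of 0 lies below the share at that GC content. The part of GC content in the count was not tested.

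Near the starts, the count was below the share of other genes within 1 kb and above it within 5 kb. A shared region lay within 1 kb of a start of 2 of the 25 genes (8%), against 19.1% of all listed genes, and within 5 kb of a start of 13 (52.0%), against 42.7%. The closest were Wnt5b at 364 bp, Wnt10b at 742 bp and Fzd9 at 1121 bp. Wnt5b and Wnt11 have more than 1 listed start, and the start nearest to a region was used. The 364 bp belong to a start well inside the Wnt5b span. The Wnt5b window near the 5′ end of the span lay 5965 bp from a shared region. The median distance was 4834 bp, against 6650 bp for all listed genes. These distances were examined after the promoter count was known.

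**Figure D3:**
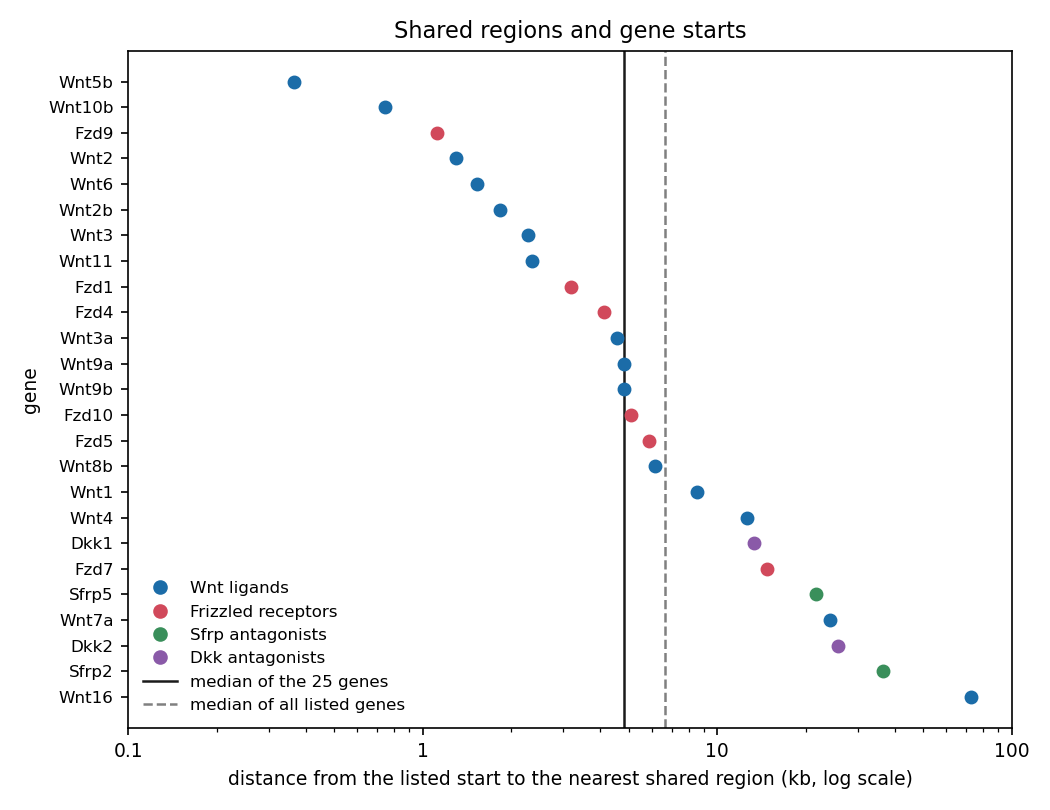
Distance from a listed start to the nearest shared region for the 25 genes with a listed start (horizontal axis, kb, log scale), 1 point per gene, coloured by family. Where a gene has more than 1 listed start, the one nearest to a region is shown. Lines are the medians of these genes (4834 bp) and of all listed genes (6650 bp). Only Wnt5b and Wnt10b lie below 1 kb, and Wnt16 lies farthest, at 72695 bp.

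Of these listed starts, 3 are shown by the 250 bases before them, 5′ to 3′ on the gene's strand, from RefSeq on GRCm38.p6, the assembly of mm10. The promoter of Fzd7 (chr1:59481897-59482146, plus strand) is the only one that any peak reached, and capitals mark its 34 bases inside a peak of replicate 2. That of Wnt5b (chr6:119467212-119467461, minus strand), at a start well inside the gene's span, has no peak in it and no capitals. Of all the windows it lies closest to a shared region, 113 bp away. That of Wnt9a (chr11:59306680-59306929, plus strand) belongs to the gene with the strongest region, and capitals mark a CAGCTG, an E-box that MyoD can bind, which starts 74 bases before the start.
Fzd7: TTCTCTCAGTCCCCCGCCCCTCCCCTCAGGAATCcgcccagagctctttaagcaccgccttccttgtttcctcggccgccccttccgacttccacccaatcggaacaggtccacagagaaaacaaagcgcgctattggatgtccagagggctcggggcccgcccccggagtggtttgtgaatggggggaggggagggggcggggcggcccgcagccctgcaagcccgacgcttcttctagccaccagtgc
Wnt5b: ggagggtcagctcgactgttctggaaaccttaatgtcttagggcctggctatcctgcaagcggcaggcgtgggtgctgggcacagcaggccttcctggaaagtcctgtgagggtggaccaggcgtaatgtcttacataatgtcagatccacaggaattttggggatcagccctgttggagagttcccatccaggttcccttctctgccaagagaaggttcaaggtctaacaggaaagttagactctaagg
Wnt9a: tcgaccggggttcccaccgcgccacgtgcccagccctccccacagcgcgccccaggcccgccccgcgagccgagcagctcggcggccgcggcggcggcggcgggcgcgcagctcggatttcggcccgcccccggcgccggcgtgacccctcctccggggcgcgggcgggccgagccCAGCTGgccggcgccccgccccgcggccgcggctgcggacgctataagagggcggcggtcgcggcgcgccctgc
The stretch of Wnt9a was 84.4% G and C, that of Fzd7 65.2% and that of Wnt5b 53.2%. In the 250 bases before a start, CAGCTG (its own complement) was found in 2 of the 28 windows of these genes, against 12.2% of all windows. CACCTG or its complement CAGGTG, another E-box, was found in 9 of 28, against 17.2%. CTTTGAT or its complement ATCAAAG, a core bound by TCF and LEF factors, was found in 2 of 28, against 2.85%. These motifs were counted in all 28 windows, since no window had a shared region, and they describe the windows and not the regions, whose sequence was not used here.

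Among the ligands, Wnt9a, known for its role in joint formation, had the strongest region of all 37 genes. It lay inside the gene at chr11:59320509-59321741, with 54.4-fold in replicate 1 and 51.3-fold in replicate 2, ranks 3563 and 3695 by q in the lists, and place 2880 among 91707 regions. The gene has 26704 bp and held 4 regions, against a mean of 1.77 in the 500 genes nearest to it in length, of which 12.0% had as many or more. The region beside the strongest one (59321835 to 59322641) had 44.8-fold in replicate 1 and 6.49-fold in replicate 2. The remaining 2 had 17.5-fold and 15.4-fold, and 6.63-fold and 7.72-fold.

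Wnt5a, a ligand best known for signalling without beta-catenin, had its strong region at the very edge of the gene, at chr14:28504570-28506591. The folds were 51.1 and 34.9, with ranks 4363 and 11265 and place 6033. A second, weaker region of 4.64-fold and 9.31-fold lay farther inside. Its relative Wnt5b, whose 112294 bp make it the longest of the 37 genes, held 7 regions. The mean was 4.97 in the 500 genes nearest to it in length and 9.92 in its length class, which holds all longer genes, so its place depended on the background. The strongest of them, at chr6:119436847-119437741, had folds of 31.8 and 28.4, ranks 12315 and 18081 and place 11622. In its length class, 63.6% of other genes had a best region at least as strong. The other 6 of Wnt5b were weaker, from 6.24-fold to 14.3-fold in replicate 1 and from 4.63-fold to 13.6-fold in replicate 2.

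Wnt2, a ligand needed in mouse lung development, held 6 regions on its 47299 bp and the flanks, against a mean of 2.69 at that length. The strongest, at chr6:18015330-18018060, was 2731 bp wide and had 31.9-fold in replicate 1 and 58.4-fold in replicate 2. Its ranks were 12927 and 2058 and its place 6189. The weakest of Wnt2 had 4.41-fold and 4.94-fold. Wnt2b held 2, the stronger inside the gene at 20.6-fold and 40.9-fold.

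Wnt7b had 4 regions, each of at least 16.1-fold in both lists. The first by strength, at chr15:85548457-85549739, had folds of 31.5 and 43.9, ranks 12073 and 5974 and place 7228. The next, from 85556456 to 85557859, had 32.3-fold and 36.9-fold. Wnt7a, the ligand that acts on mouse satellite cells, also held 4, on nearly the same gene length (47373 bp, against 46385 bp for Wnt7b). They were weaker: the strongest, at chr6:91385984-91387204, had 30.3-fold and 15.8-fold, and the others did not exceed 17.3-fold in replicate 1 and 14.5-fold in replicate 2. Genes nearest in length had a mean of 2.64 regions for Wnt7b and 2.71 for Wnt7a.

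Wnt4, which directs kidney tubule and ovary development in the mouse, had its regions at one end and beyond it. The strongest, at chr4:137303257-137304345, lay 3755 bp downstream of the gene, with 46.3-fold and 26.9-fold, ranks 5739 and 20293 and place 9733. A region between it and the gene had 12.9-fold and 17.4-fold, and one across the gene's end 4.77-fold and 4.32-fold. Wnt11, which orients elongating muscle fibres in chick embryos, held 3 regions of at most 7.71-fold in replicate 1 and 10.8-fold in replicate 2.

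Pairs of neighbouring ligand genes account for 8 of the 19. Wnt9b and Wnt3, whose RefSeq spans overlap on chromosome 11, were covered by 9 regions over 100660 bp. Wnt9b alone held 8, against a mean of 2.67 in genes nearest in length, of which 1.80% had as many or more. The strongest of Wnt9b, at chr11:103732932-103734198, had folds of 22.0 and 39.2, ranks 26031 and 8482 and place 14007. Of the 8, 3 lay between the listed start of Wnt9b and the far end of its span, on the side of Wnt3. Wnt3, required for gastrulation in the mouse, had a region of its own at chr11:103782608-103783827, with 21.1-fold and 38.0-fold, ranks 20784 and 9206 and place 11906. The other region within its 5 kb, of 15.6-fold and 26.6-fold, lay inside Wnt9b.

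The pair Wnt3a and Wnt9a, also on chromosome 11, was uneven. Wnt3a, a ligand widely used to activate beta-catenin, had 1 region on 42716 bp, of 15.8-fold and 14.2-fold, while 85.4% of the genes nearest in length had at least 1. It also had peaks that were found in only 1 list, 4 in each. The strongest, of 17.6-fold in replicate 1 and 16.8-fold in replicate 2, lay 269 bp apart. They were 1242 and 315 bp upstream of the gene, and neither reached its listed promoter window. Wnt6 and Wnt10a on chromosome 1 shared a region of 27.5-fold and 19.1-fold that lies between them (chr1:74787721-74788968). Wnt6 had 2 more, of 14.0-fold and 7.41-fold and of 9.92-fold and 16.7-fold, and Wnt10a 1 more, of 4.74-fold and 3.04-fold. Wnt10b, which restrains fat cell formation, had 2 regions just upstream, the stronger at chr15:98778892-98780706 with 19.5-fold and 30.3-fold. Its neighbour Wnt1 had none within 5 kb.

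Among the receptors, Fzd1, Fzd3 and Fzd6 held the most regions, 3 each, and Fzd1 was the shortest of them. Its 4378 bp and flanks held 3 regions, against a mean of 0.836 in genes nearest in length, of which 5.20% had as many or more. The strongest, at chr5:4761395-4762205, lay 3178 bp upstream, with folds of 25 and 30.6, ranks 21327 and 15329 and place 14520. The gene itself held one of 11.1-fold and 5.87-fold, and one 3544 bp downstream had 5.3-fold and 9.27-fold. Fzd5 had a single region across its end, of 31.6-fold and 18.5-fold. Fzd6 held 3, up to 14.7-fold and 19.8-fold, and Fzd3, which acts in planar cell polarity, held 3 of at most 7.71-fold and 12.0-fold on 70023 bp. Fzd9 had one upstream of 14.5-fold and 12.3-fold and another of 9.31-fold and 6.79-fold that lies closer to Baz1b. Fzd4, a receptor of retinal vessels, had the lowest-placed best region of the 26 genes, of 4.04-fold and 4.94-fold.

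Fzd7, the Wnt7a receptor on mouse satellite cells, had no shared region, although both lists had peaks inside the gene. The peak of replicate 1 (59482695 to 59483149, 6.98-fold) and that of replicate 2 (59483215 to 59483821, 11.1-fold) were 65 bp apart on chromosome 1. Replicate 2 had 2 further peaks of 4.63-fold at Fzd7, one inside it and the one that reaches its promoter, 216 bp from the gene. The nearest shared region of Fzd7 lay 9889 bp away (chr1:59496845-59497058, 5.27-fold and 8.34-fold, ranks 100356 and 88334). Fzd2 and Fzd10 had no peak of either list within 5 kb. The region nearest to Fzd2 was weak and 9467 bp away (chr11:102594093-102594963, 4.41-fold and 4.94-fold, ranks 139246 and 142882). That nearest to Fzd10 was 5096 bp away (chr5:128595261-128596009, 10.3-fold and 5.56-fold, ranks 62842 and 128471). Fzd10 thus lay just outside the window, and the outermost region still counted lay 4120 bp from its gene, Wnt11.

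Among the antagonists, Sfrp1 held 3 regions. The strongest, at chr8:23408316-23410185, lay 1197 bp outside the gene, with folds of 24.6 and 31.2, ranks 21893 and 14637 and place 14502. The others were inside, at 13.2-fold and 11.4-fold and at 5.14-fold and 6.18-fold. Sfrp4 had 1 weak region of 4.77-fold and 4.32-fold, closer to Epdr1 than to Sfrp4. Dkk2 held 6 on 95039 bp, all inside the gene, the strongest at 13.8-fold and 11.6-fold. Dkk3, a divergent member of the family, had 1 of 18.2-fold and 25.9-fold, where genes nearest in length had a mean of 2.50. Dkk4 had 1 of 14.3-fold and 21.6-fold that ended 53 bp from the gene.

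The genes without a shared region within 5 kb were 11, and 10 of them were shorter than 11 kb. Besides Fzd7, Fzd2 and Fzd10 they were Wnt1, Wnt8a, Wnt8b, Wnt16, Fzd8, Sfrp2, Sfrp5 and Dkk1. Of these 11, 6 had no peak of either list nearby, namely Wnt8b, Wnt16, Fzd2, Fzd8, Fzd10 and Sfrp2. The exception in length was Wnt8b, with 20802 bp, where 75.4% of the genes nearest in length had a region. The region nearest to Wnt8b lay 6141 bp away (chr19:44486986-44487330, 5.51-fold and 8.11-fold, ranks 113619 and 90975). Wnt16 and Sfrp2 were the most isolated of the 11. The region nearest to Wnt16 lay 69116 bp away (chr6:22367639-22368595, 7.71-fold and 15.8-fold, ranks 82498 and 45257). That nearest to Sfrp2 lay 36087 bp away (chr3:83729076-83729662, 18.0-fold and 14.8-fold, ranks 34376 and 48570). For Fzd8 the distance was 9210 bp (chr18:9225412-9226702, 9.92-fold and 7.86-fold, ranks 65016 and 88239).

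Wnt1, Sfrp5, Wnt8a and Dkk1, like Fzd7, had peaks in 1 list, or in both without overlap. Wnt1 had a peak of 7.71-fold in replicate 1 and peaks of 7.41-fold and 4.63-fold in replicate 2, with the nearest shared region 8537 bp away, upstream of Wnt10b (chr15:98780832-98781319, 7.52-fold and 14.7-fold, ranks 85754 and 48333). Sfrp5 had peaks of 11.4-fold and 3.32-fold in replicate 1 and of 6.79-fold and 4.02-fold in replicate 2. Those of 11.4-fold and 6.79-fold were 23 bp apart, and the nearest shared region lay 17370 bp away (chr19:42178661-42180600, 25-fold and 21.5-fold, ranks 21327 and 29079). Wnt8a had 3 peaks of at most 9.57-fold in replicate 2 alone and a shared region at 8301 bp (chr18:34556363-34557331, 4.77-fold and 18.2-fold, ranks 130749 and 37721). Dkk1 had 2 peaks of 5.56-fold in replicate 2 alone. A strong shared region lay 13364 bp from Dkk1 (chr19:30562861-30564314, 91.5-fold and 70.7-fold, ranks 146 and 483), above any region within 5 kb of the 37 genes. Near all 37 genes, 24.8% of the 105 distinct peaks of replicate 1 had no partner, against 31.9% near any protein-coding gene of chromosomes 1 to 19. In replicate 2, 38.2% of 136 had none, against 43.4%. Of these 78 peaks, 30 missed the other list's nearest peak by no more than 1 kb.

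Other genes of the pathway lay near shared regions about as often as genes of their length. They were 71 genes in 6 lists, of which 66 lie on chromosomes 1 to 19, and 59 of the 66 (89.4%) had a region within 5 kb, against 57.0 from gene length. Their median length was 65097 bp, against 16905 bp for the 37 genes. Of 11 co-receptors and other receptors, 10 had a region, all but Lgr4, against 10.3 from gene length. They were led by the Wnt5a receptor gene Ror2 (94.4-fold and 67.3-fold), Ror1 (75.3-fold and 60.5-fold) and the R-spondin receptor gene Lgr6 (55.5-fold and 70.1-fold). Of 12 other secreted modulators, 8 did, against 9.03, led by Rspo3, which enhances Wnt signals (77.9-fold and 44.7-fold), Draxin (11.4-fold and 24.4-fold) and the Wnt inhibitor gene Wif1 (22.8-fold and 10-fold).

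All 5 genes of ligand processing and receptor turnover on these chromosomes had a region, against 4.68 from gene length. They were led by Trabd2b (25.9-fold and 62.4-fold) and the ubiquitin ligase genes Znrf3 (32.2-fold and 29.8-fold) and Rnf43 (29.0-fold and 44.8-fold). Of 13 genes of the destruction complex and Dishevelled, 12 did, all but Dvl3, against 10.6 from gene length. They were led by the beta-catenin kinase gene Gsk3b (87.2-fold and 74.4-fold), Csnk1d (49.1-fold and 49.9-fold) and Axin2, a feedback target of the pathway (54.4-fold and 43.9-fold). Of 15 nuclear effectors, 14 did, all but Lef1, against 13.2. They were led by Pygo2 (85.6-fold and 71.7-fold), the corepressor gene Tle4 (46.3-fold and 51.3-fold) and Ctnnb1, which encodes beta-catenin (45.9-fold and 44.2-fold). All 10 planar cell polarity genes had one, against 9.15, led by Daam1 (68.7-fold and 74.7-fold), Vangl2 (63.2-fold and 52.5-fold) and Prickle2 (56.6-fold and 35.8-fold).

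**Figure D4:**
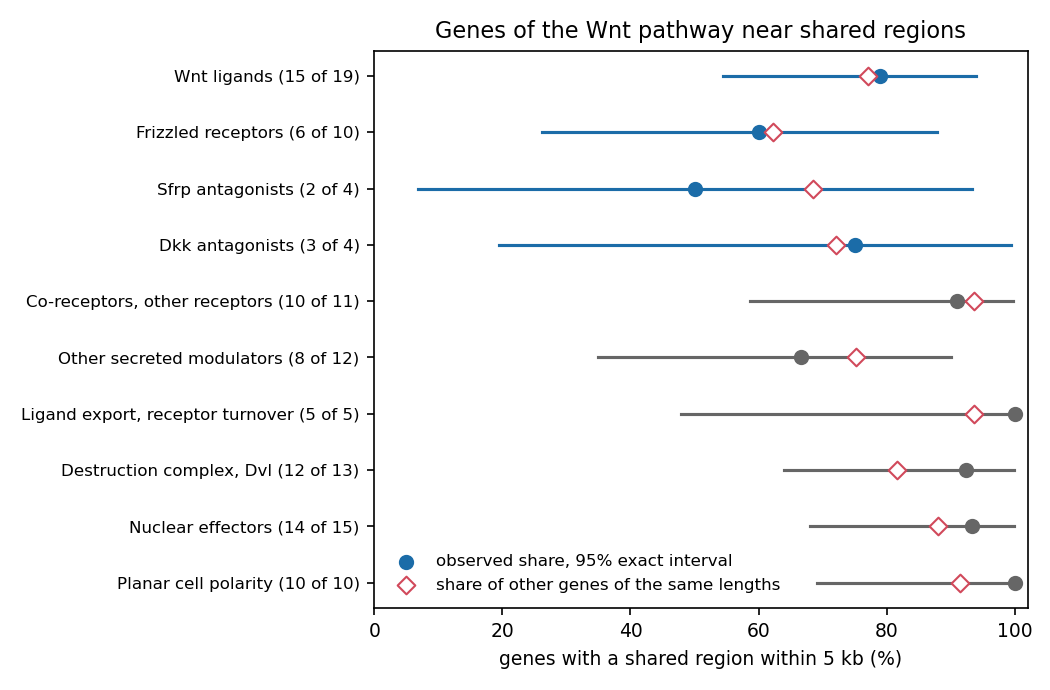
Share of genes with a shared region within 5 kb (horizontal axis, percent) for the 4 families (blue) and 6 further lists of pathway genes (grey). Circles are observed shares with 95% exact intervals, and diamonds are the shares of other genes of the same lengths. Every diamond lies within the interval of its list, and the intervals of the 4 families are wide, as for the Sfrp genes, where 2 of 4 stand against 68.5%.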

How the data were processed

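The 6 samples were grouped by title into captures with odd probes, captures with even probes and inputs. Per the submitters' processing notes, Bowtie2 2.3.2, Picard 2.9.2, MACS2 2.1.1 and mm10 were used, with no order, parameters, control libraries or threshold given. The deposited narrowPeak lists give each peak's fold enrichment as a ratio by the authors, its q-value as −log10, a score of about 10 times −log10 q, and the summit offset in bp. Replicate 1 had no −log10 q below 1.35, and replicate 2 none below 1.32. Ranks and percentiles were taken within a list. Folds of both lists are printed side by side, and no difference between them was tested.

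Genes, spans and promoter windows came from RefSeq tables of GRCm38.p6. A gene was counted where its span, widened by 5 kb each way, overlapped a region. Numbers from gene length are sums, over genes, of the share or mean in other genes of the same class. No test was run, since there is 1 list per replicate and which libraries entered it is not stated. Overlap code was tested on simulated data. The genes and lists were chosen with earlier results of these data known. All 37 genes are named, with full values for the 10 with the strongest regions and those with none, and the 3 strongest of every further list. Computation used pandas 2.3.3 and numpy 2.4.6 in Python 3.11.15, with exact intervals from scipy 1.17.1.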

Additional observations from a re-analysis of the deposited data

How the results depend on the processing

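Each count was repeated with other windows, thresholds, overlap rules and length backgrounds. Of 50 repeats, 43 stayed within 1.5 times the reported count. Some of them could not have moved. Other length backgrounds leave the observed count as it is, and stricter peak thresholds cannot raise a promoter count of 0. With only the 10000 strongest peaks of each list, 1 of the 37 genes had a shared region, against 4.38 from gene length, and 1 region was left. Peaks of replicate 1 then lay near 3 genes, against 6.11, and those of replicate 2 near 6, against 6.40. Within 5 kb of gene ends alone, 38 regions were counted, against 36.9 from gene length. Leaving out either replicate gave 29 to 31 genes, 105 to 136 distinct peaks and 0 to 1 promoters, the last at Fzd7. Counted once per gene, replicate 1 alone had 107 peaks, against 107 from gene length, and replicate 2 alone 138, against 126, so the excess of shared regions (78 against 68.4) was not seen in replicate 1. Over 34 settings of the 3 gene counts, the difference from gene length lay between -3.38 and 2.80 genes, positive in 17 and negative in 17. These settings use the same 2 lists and some repeat the same values, so they are not independent. With 10 kb windows, 33 of the 37 genes had a region, against 30.2. Background by GC content and distances to starts were added after the data were seen. No paired analysis was possible because there is 1 peak list per replicate for all 3 samples and no result comes from a test.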
